A study of Mus musculus with 4 samples.

Results

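The Dlx1/Dlx2 and Dlx6/Dlx5 gene pairs were examined in lists of H3K27ac HiChIP interactions from adult mouse cortex, prepared from nuclei of interneurons that express somatostatin (SST) or vasoactive intestinal peptide (VIP). HiChIP enriches chromatin contacts in which at least 1 end carries a chosen mark. Here the mark was H3K27ac, an acetylation found at active promoters and enhancers. Nuclei came from C57BL/6 mice carrying either Sst-cre or Vip-cre together with the Sun1 nuclear envelope tag, so each list describes the cells that had expressed that Cre driver. The labels describe 4 samples, 2 per cell type, and 1 list per cell type was analysed here. The sources used here do not say how many animals went into a sample or whether a list pools samples. Every interaction was taken that had an anchor, meaning one end of the listed contact, overlapping by 1 bp a window around Dlx1 and Dlx2 (chromosome 2, 71.34 to 71.4 Mb) or around Dlx6 and Dlx5 (chromosome 6, 6.78 to 6.88 Mb) in build mm9. These were 61 of 15011 listed interactions, 36 of the 8278 in the SST list and 25 of the 6733 in the VIP list.

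Dlx genes encode homeodomain transcription factors that act in the ganglionic eminences of the embryonic forebrain, where cortical inhibitory neurons are born. They lie in the genome as convergently transcribed pairs, with enhancers in the stretch between the paired genes. Dlx1 and Dlx2 act early in the lineage and are needed for the expression of Dlx5 and Dlx6. Genes for GABA synthesis, such as Gad1, are among the known targets of the family. The lists hold positions alone, with no read count or score per interaction, and an mm9 annotation was not used here. The windows are therefore given by the selection rule, the marker genes of the cell types were not checked, and no partner was assigned to a gene.

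The promoter sequences of Dlx1 and Dlx2 are shown because both genes belong to the chromosome 2 window, and their anchor had among the most interactions of either list. They are the 250 bases before the start site in the RefSeq table of build GRCm38.p6, at chr2:71529195-71529444 on the plus strand for Dlx1 and at chr2:71546755-71547004 on the minus strand for Dlx2. These positions are not those of the interaction lists. Capitals mark matches to CACGTG, an E-box bound by basic helix-loop-helix factors, and to the CCAAT box.
Dlx1: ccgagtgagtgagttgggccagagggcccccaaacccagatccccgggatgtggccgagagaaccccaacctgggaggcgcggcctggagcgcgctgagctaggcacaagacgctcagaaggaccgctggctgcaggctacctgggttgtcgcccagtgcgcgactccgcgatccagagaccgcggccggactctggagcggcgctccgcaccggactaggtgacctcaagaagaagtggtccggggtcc
Dlx2: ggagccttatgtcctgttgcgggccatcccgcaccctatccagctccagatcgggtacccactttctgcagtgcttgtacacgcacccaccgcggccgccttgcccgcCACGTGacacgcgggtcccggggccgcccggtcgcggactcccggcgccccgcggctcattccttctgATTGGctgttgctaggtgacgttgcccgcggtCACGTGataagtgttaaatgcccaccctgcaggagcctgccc
The Dlx2 stretch held CACGTG at 2 places, from bases 109 and 209 of the printed run, and the CCAAT box once on the opposite strand, as ATTGG from base 177. CACGTG occurred in 6.02% and CCAAT in 33.8% of the 32851 promoters of the same length, on either strand. No match in either gene was found for TAATTA, the core recognised by many homeodomains (4.84% of promoters), for TATAAA (12.4%) or for the cAMP response element TGACGTCA (1.55%). GC content was 68% in Dlx1 and 66.4% in Dlx2, against a median of 52.4% over all promoters. CG dinucleotides numbered 22 in Dlx1 and 24 in Dlx2, against a median of 6. The motifs were picked with the sequences in view and describe letters, not binding.

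Dlx1/Dlx2 was a busy locus in both interneuron classes, while Dlx6/Dlx5 was listed for SST alone. The Dlx1/Dlx2 window had 23 interactions in the SST list (Poisson interval 14.6 to 34.5) and 25 in the VIP list (16.2 to 36.9). The Dlx6/Dlx5 window had 13 in the SST list (6.92 to 22.2) and 0 in the VIP list. Intervals here are exact at 95% and cover counting error only. With 1 list per cell type there is no spread between samples and no test. The interactions were selected on their positions alone, but the loci were chosen by their counts of listed interactions, so these counts describe the lists and support nothing further. Read depth is unknown. A contact that goes unlisted in a cell type was not called in it, and may still be present.

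At Dlx1/Dlx2, every interaction of a list had the same anchor at one end. It ran from 71348177 to 71387539 in the SST list, a width of 39.4 kb, and from 71345229 to 71387539 in the VIP list, a width of 42.3 kb. The anchors shared their right edge, and their left edges lay 2948 bp apart. The nearest VIP partner, 71329148 to 71340093, also reached into the window, so both anchors of that interaction belonged to the locus. Scaled to list length, the locus had 2.78 interactions per 1000 in SST and 3.71 per 1000 in VIP. The SST over VIP ratio was 0.748, given as a description of the counts by which the locus was chosen. In the SST list 5 anchors had more interactions than the Dlx1/Dlx2 anchor, and in the VIP list none had.

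**Figure D1:**
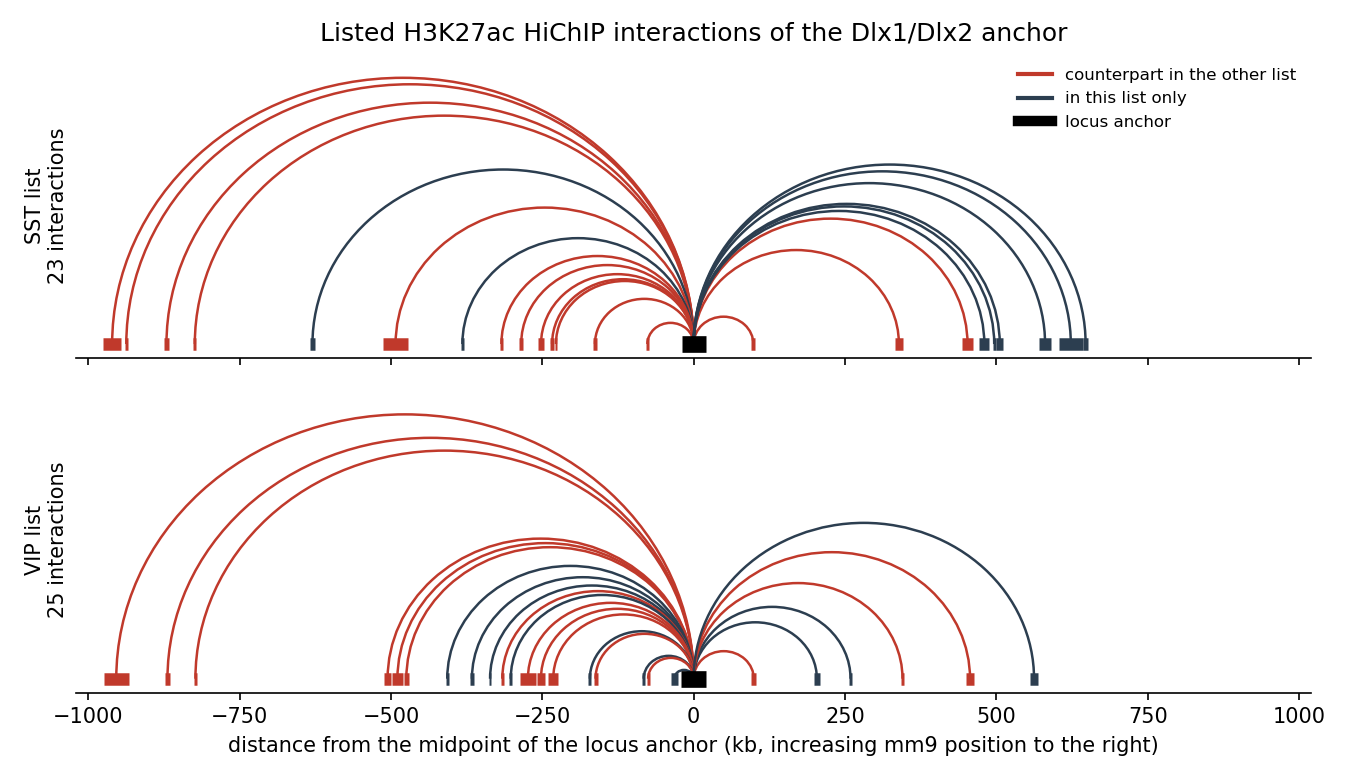
Arcs join the Dlx1/Dlx2 anchor (black) to each listed partner in the SST list (top, 23 interactions) and the VIP list (bottom, 25 interactions); the horizontal axis is the distance from the anchor's midpoint in kb, arc height has no unit beyond the length of the arc, and bars show anchor widths. Red arcs have a counterpart in the other list, and the 4 farthest SST and 3 farthest VIP partners on the left are red, while 6 of the 9 arcs on the right of the SST panel are dark.

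Partners were spread over both flanks but more of them lay at lower coordinates. On the lower side were 14 SST partners and 19 VIP partners, and on the higher side 9 SST partners and 6 VIP partners. In the GRCm38 gene order, the neighbours on the lower side are Metap1d, a mitochondrial methionine aminopeptidase gene, then Hat1, which encodes a histone acetyltransferase, and Slc25a12, which encodes a mitochondrial aspartate-glutamate carrier. Farther out on that side lies Gad1, with 9 protein-coding genes between it and Dlx1. The neighbours on the higher side are Itga6, an integrin gene, Pdk1, a pyruvate dehydrogenase kinase gene, and Rapgef4, which encodes a cAMP-activated exchange factor. These names give the order of the genes and not the identity of any partner.

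The Dlx1/Dlx2 contacts were long beside the whole lists. Distances at other busy anchors were not computed, so length is not given as a trait particular to this locus. Their median distance between anchor midpoints was 480 kb in SST (76.4 to 960.5 kb) and 316 kb in VIP (31.8 to 953.7 kb), while the median of the whole list was 178 kb for SST and 167 kb for VIP. Only 3 of the 23 SST interactions and 6 of the 25 VIP interactions were up to 200 kb long, a class that held 52.2% of the whole SST list and 53.2% of the whole VIP list. Above 600 kb were 7 of the 23 SST and 3 of the 25 VIP interactions. This class held 9.76% of the whole SST list and 8.42% of the whole VIP list. By side, the medians stood closer together on the lower side, at 350 kb for SST and 316 kb for VIP. On the higher side the 9 SST interactions had a median of 496 kb and the 6 VIP interactions one of 302 kb.

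Most Dlx1/Dlx2 contacts of one class were also listed in the other. Sharing was called where an interaction of the other list overlapped it, by 1 bp, at both anchors. In the SST list 15 of 23 were shared, 65.2% (exact interval 42.7 to 83.6%), where 21.4% of all SST interactions were. In the VIP list 15 of 25 were shared, 60% (38.7 to 78.9%), where 25.8% of all VIP interactions were. Some neighbouring partners matched the same anchor of the other list, and these intervals treat such contacts as independent. Other anchors busy in both lists had shares in the same range. Among the 39 SST anchors that had 10 or more interactions and overlapped such an anchor of the VIP list, the median shared share was 62.5%, with 16 above and 22 below the Dlx1/Dlx2 value. From the VIP side the median over 39 anchors was 70%, with 23 above and 11 below.

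When overlapping partner anchors of both lists were joined, they made 31 partner regions, of which 13 were linked in both lists, 8 in SST only and 10 in VIP only. The regions linked in both lay mainly on the lower side, with 10 of its 19 regions against 3 of the 12 on the higher side. The farthest pair of regions linked in both ran from 70392430 to 70433611, about 955 kb from the SST anchor midpoint, and from 70492408 to 70502171, about 871 kb away. Next came 70540440 to 70546449 and the wide region from 70855059 to 70896114. The VIP list divided this last region into 3 anchors, and the SST list held it as 1 anchor of 41.1 kb. A denser group followed between 71047773 and 71142562, with 4 regions linked in both: 71047773 to 71052894, 71079379 to 71105893, 71107760 to 71120592 and 71126368 to 71142562. The nearest regions on this side were 71201028 to 71207740 and 71288855 to 71293551. On the higher side the shared regions were 71461559 to 71470013, 71700175 to 71713726 and 71810878 to 71829637.

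Some boundaries of shared partners fell on the same base in both lists. Of the 17 overlapping pairs of an SST and a VIP partner anchor, 13 had at least 1 edge in common, and the pair at 71047773 to 71052894 had both. Identical anchors also occurred elsewhere, as on chromosome 12 at 54344636 to 54368763. The share over all overlapping anchors of the lists was not computed, so this is not given as a trait of the locus. How the anchors were set is not stated in the labels or files.

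The SST-only partners were concentrated beyond the last shared region on the higher side. The 6 SST-only regions of that side ran from 71839913 to 72019552, between 480 and 648 kb from the SST anchor midpoint. The remaining 2 lay on the lower side, at 70733510 to 70742980 and 70983670 to 70988127. The VIP list had 1 partner inside the higher stretch, at 71921503 to 71935824, which lay 2.57 kb from an SST-only anchor without overlapping it. Apart from links with the Dlx1/Dlx2 anchor, the VIP list had no interaction above the window before 72815479. The SST list had others from 71810878. The part of read depth or of the calling threshold in this was not tested. The VIP-only partners lay mainly on the lower side, with 7 regions there and 3 on the higher side. Of these 10 VIP-only partners, 5 lay within 10 kb of an SST partner, as did 2 of the 8 SST-only partners of a VIP partner. None of the list-specific partner regions overlapped an anchor of the other list. The share over all unshared partners of the lists was not computed, so this is not given as a trait of the locus. Only anchors that take part in an interaction are listed. Whether either cell type carried the mark at these places was not tested.

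At Dlx1/Dlx2 sharing was not confined to short contacts. Above 600 kb, 4 of 7 interactions were shared in SST and 3 of 3 in VIP, and at 400 to 600 kb 2 of 6 were in SST and 4 of 6 in VIP. At 200 to 400 kb the counts were 6 of 7 in SST and 5 of 10 in VIP. Up to 200 kb they were 3 of 3 in SST and 3 of 6 in VIP. By side, 12 of 14 SST and 12 of 19 VIP interactions on the lower side were shared, against 3 of 9 SST and 3 of 6 VIP interactions on the higher side. Each distance class held only 3 to 10 interactions. Shares by distance or side were not computed for the whole lists or for other busy anchors, so these counts describe this locus only.

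**Figure D2:**
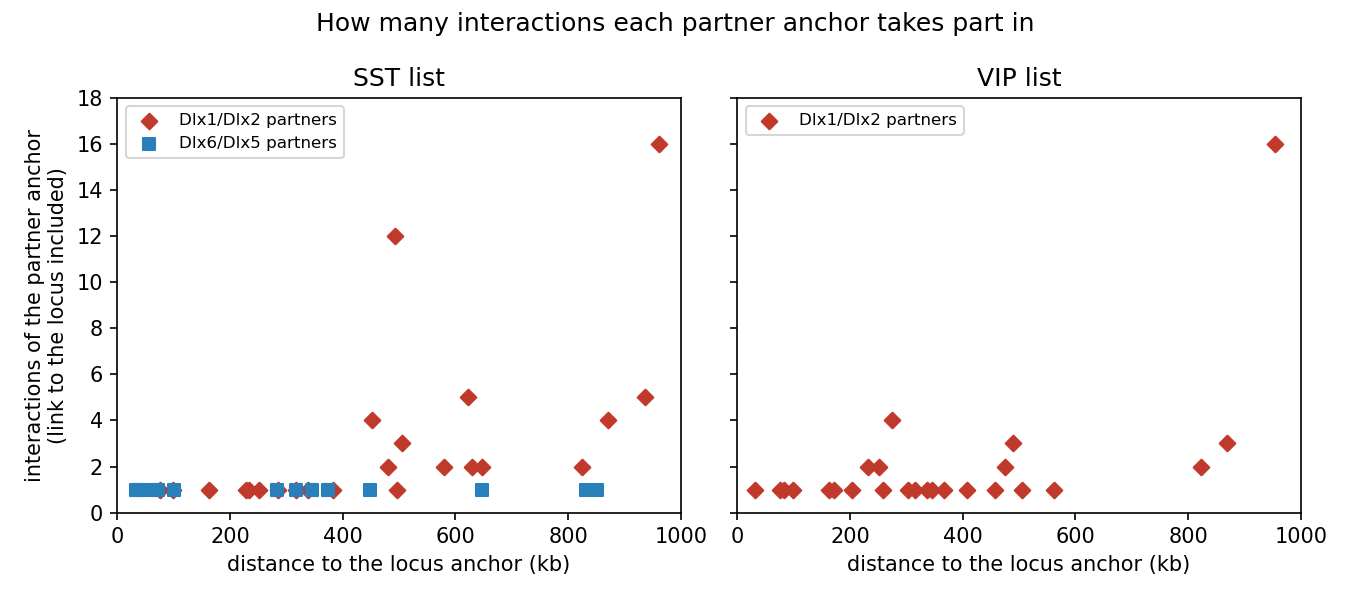
Each point is a partner anchor, placed by its distance from the Dlx anchor in kb and by its own number of interactions, with the link to the Dlx anchor included; the SST list is on the left and the VIP list on the right, with diamonds for Dlx1/Dlx2 and squares for Dlx6/Dlx5. The farthest Dlx1/Dlx2 partner took part in 16 interactions in each list, and every Dlx6/Dlx5 partner took part in 1.

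Some partners of Dlx1/Dlx2 were busy themselves. The far region from 70392430 to 70433611 took part in 20 SST interactions, over 2 anchors, and in 16 VIP interactions, over 1 anchor. Of these, 14 SST and 11 VIP interactions led away from Dlx1/Dlx2 to still lower coordinates, and counterparts were listed for 14 of the 20 in SST and for 12 of the 16 in VIP. The region from 70855059 to 70896114 had 12 interactions in SST, of which 4 were shared, and 6 in VIP, all of them shared. The anchor at 71971439 to 72010383 had 5 interactions in SST and no overlapping VIP anchor. At 71079379 to 71105893 the order was the other way, with 1 interaction in SST and 4 in VIP. At the other end of the scale, 11 of 23 SST partners and 17 of 25 VIP partners were listed for their link to Dlx1/Dlx2 alone. The share of anchors with 1 interaction was 47.9% in the whole SST list and 48.2% in the whole VIP list.

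Links between the partners stayed on one side of the locus. The SST list held 13 interactions that joined partners of Dlx1/Dlx2 to each other, 7 on the lower and 6 on the higher side. The VIP list held 7, all on the lower side. On the lower side 4 of the 7 SST links and 4 of the 7 VIP links were shared, and they joined the regions at 70392430, 70492408, 70540440 and 70855059. None of the 6 SST links on the higher side had a VIP counterpart. Each of these 6 had an end at an SST-only partner, where the VIP list held no anchor. No counterpart was therefore possible, and the count adds nothing to the SST-only calls. Of the 3 VIP links without an SST counterpart, 2 joined 71079379 to 71105893 with its neighbours at 71107760 and 71126368. The third joined it with 70392430 to 70432975.

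No listed interaction passed over the Dlx1/Dlx2 anchor from one flank to the other, in either list. There were 80 SST and 95 VIP pairs of partners on opposite sides within 1 Mb of each other, and 0 of them were linked in either list. This follows from the lack of any interaction across the anchor, as does the one-sidedness of the links between partners. Of the same-side pairs, 13 of 127 were linked in SST and 7 of 186 in VIP. Other busy anchors were usually passed over. The median number of such interactions over the 259 SST anchors and 207 VIP anchors with 10 or more interactions was 7 in SST and 6 in VIP. Anchors with none made up 16.6% of the SST and 17.4% of the VIP anchors of this kind, so the Dlx1/Dlx2 anchor belonged to a minority but was not alone in this. Among anchors with 20 or more interactions, 5 of 22 in SST and 2 of 15 in VIP had none. The Dlx1/Dlx2 anchor itself is included in each of these counts and shares.

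**Figure D3:**
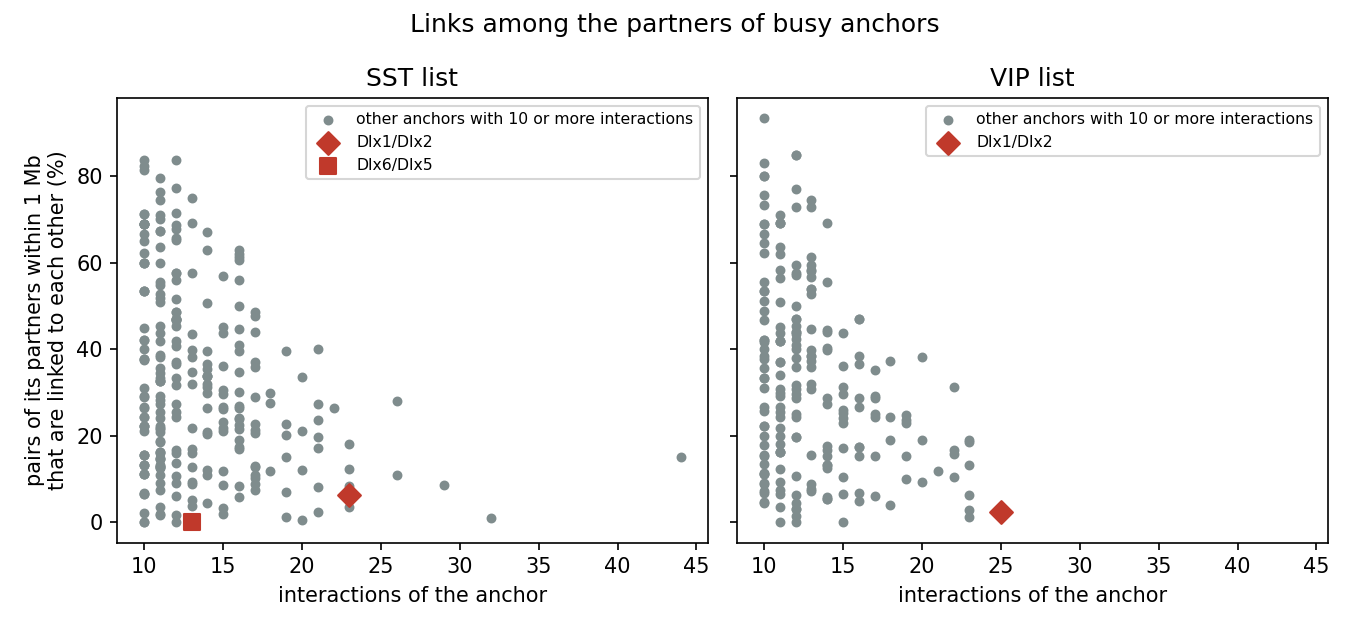
For every anchor with 10 or more interactions, the share of pairs of its partners within 1 Mb that were linked to each other (in percent) is plotted against the number of its interactions, for the SST list (left) and the VIP list (right). The Dlx1/Dlx2 anchors (diamonds, 6.28% in SST and 2.49% in VIP) and the SST Dlx6/Dlx5 anchor (square, 0%) lie near the lower edge of the points.

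Partners of Dlx1/Dlx2 were sparsely linked to each other. Of all pairs within 1 Mb, 6.28% were linked in SST and 2.49% in VIP, where the median over anchors with 10 or more interactions was 27.6% in SST and 29.6% in VIP. The share was lower at anchors with more interactions. Among anchors with 20 or more, the median was 13.7% in SST, with 4 of 22 below Dlx1/Dlx2, and 13.1% in VIP, with 1 of 15 below. For pairs up to 200 kb apart the shares at Dlx1/Dlx2 were 15% in SST and 3.41% in VIP. The medians over anchors with 10 or more interactions were then 31.2% in SST and 33.3% in VIP. At this setting 52 of the 259 SST anchors and 13 of the 207 VIP anchors lay below Dlx1/Dlx2. Anchors with 20 or more interactions were not compared for such pairs.

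Dlx6/Dlx5 differed from Dlx1/Dlx2 in its surroundings. The SST anchor ran from 6788480 to 6834905, a width of 46.4 kb, and 101 SST anchors had more than its 13 interactions. Of its partners 12 lay at lower coordinates and 1 at higher coordinates. An uneven split of this kind had 7.69% or less of partners on the smaller side. It was seen at 37 of the 259 SST anchors with 10 or more interactions (14.3%), this one included. The Dlx6os1 RNA gene, whose transcripts are also called Evf1 and Evf2, overlaps Dlx6 in the RefSeq table. Protein-coding neighbours in the GRCm38 order are Sem1, a proteasome subunit gene, Slc25a13, a mitochondrial carrier gene, and Dync1i1, a dynein gene, on the lower side. On the higher side they are Sdhaf3, an assembly factor gene, Tac1, which encodes the substance P precursor, and Asns, the asparagine synthetase gene.

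**Figure D4:**
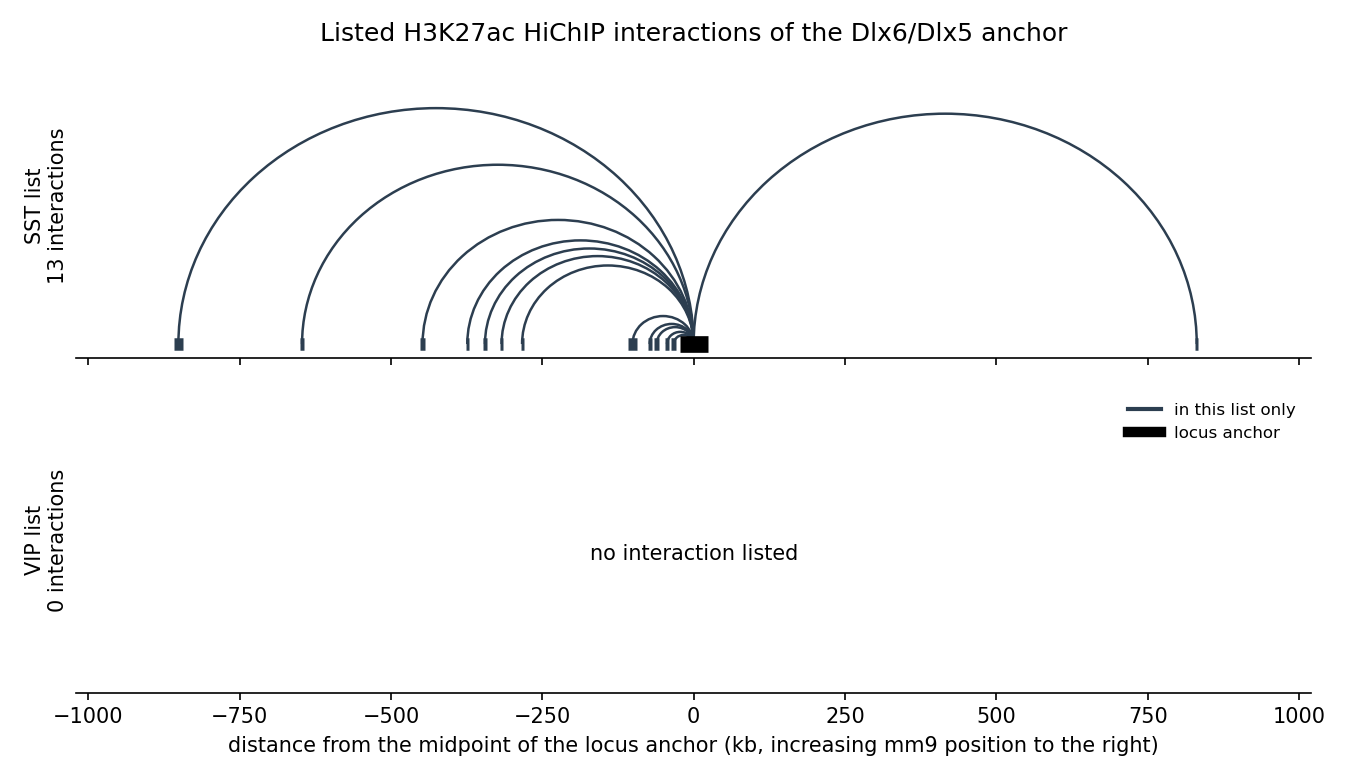
Arcs join the Dlx6/Dlx5 anchor (black) to each listed partner in the SST list (top, 13 interactions); the VIP panel (bottom) is empty because the VIP list holds 0 interactions there. The horizontal axis is the distance from the anchor's midpoint in kb, and 12 of the 13 SST partners lie on the left.

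The 12 lower partners of Dlx6/Dlx5 fell into a near and a far group. The near group had 5 partners within 101 kb of the anchor midpoint, between 6703221 and 6782768. They were 6774986 to 6782768, 6763925 to 6771621, 6746694 to 6754597, 6735637 to 6742704 and 6703221 to 6718216. The nearest of them lay 32.8 kb away and itself overlapped the window, so both anchors of that interaction belonged to the locus. The far group had 4 partners between 6435387 and 6530742, at 283 to 374 kb, and 3 more at 6360373 to 6367509, 6160854 to 6168882 and 5953453 to 5967797, the last at 851 kb. The 1 partner at higher coordinates, 7640620 to 7644871, lay 831 kb away. The median distance was 317 kb, and 5 of the 13 interactions were up to 200 kb long.

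The Dlx6/Dlx5 partners had no other interaction in the SST list, 13 of 13, where 47.9% of all SST anchors had 1 interaction. None of the 71 pairs of these partners within 1 Mb was linked. A value of 0 was seen at 4 of the 259 SST anchors with 10 or more interactions, this one included. Among the 139 SST anchors with 11 to 15 interactions the median share of linked pairs was 32.1%. No SST interaction passed over the anchor. These values are not separate traits. All 13 partners lay within 1 Mb of the window, and the lowest start of any other SST interaction on the chromosome was 8942309. Within 1 Mb of the window the SST list held 13 interactions, all of them at Dlx6/Dlx5, and the values above follow from that. Around Dlx1/Dlx2, by contrast, 59 SST and 44 VIP interactions lay within 1 Mb, of which 36 SST and 19 VIP interactions were elsewhere than at the locus.

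The VIP list was empty well beyond Dlx6/Dlx5. None of its interactions lay within 1 Mb of the window, and its first on chromosome 6 started at 22483393. This was the highest starting point of any of the 19 autosomes in the VIP list, whose median was 5.15 Mb. The SST list held 24 interactions below that position, 13 at Dlx6/Dlx5 and 11 elsewhere. Chromosome 6 had 427 SST and 324 VIP interactions in all. An SST anchor with 10 or more interactions overlapped no VIP anchor in 48.3% of 259 cases, and had no VIP interaction within 1 Mb in 11.2%. These 29 anchors lay on 11 chromosomes, and 13 of them had 13 or more interactions, so the Dlx6/Dlx5 anchor was one of several in this position. The part of read depth or of the calling threshold in the empty VIP stretch was not tested.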

How the data were processed

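H3K27ac HiChIP was performed on INTACT-purified cortical nuclei with MboI digestion, per the labels' protocols. The authors deposited, per cell type, a list of 6 columns without a header: chromosome, start and end of each paired anchor. HiC-Pro and build mm9 are named in the submitters' processing notes. The sources used here do not name the interaction caller, its threshold or any pooling of samples. The lists are attached to replicate 1 of each cell type, and no separate list for replicate 2 was at hand.

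Every interaction touching a Dlx window was taken, and all are accounted for. The members, gene lists and comparisons were chosen with earlier results of these data known. Sharing needed both anchors to overlap by 1 bp. Distances join anchor midpoints. Printed intervals are exact Poisson or Clopper-Pearson intervals at 95%. Anchors with 10 or more interactions of the same list served for comparison. The planned marker and pathway genes were not examined without an mm9 annotation. Promoters came from RefSeq (2 of the 4 genes matched). The overlap and link steps were tested on simulated data. Python 3.11.15, numpy 2.4.6, scipy 1.17.1 and matplotlib 3.10.9 were used.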

Additional observations from a re-analysis of the deposited data

How the results depend on the processing

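Of 57 alternative values, 47 equalled the reported value, stayed within 1.5 times the reported count or lay within the interval of the reported value. For median distances this was an interval of the median taken from the ranked distances. Placing anchors by midpoint or widening the windows by 50 kb changed no count and no median distance. Limiting the lists to interactions of up to 200 kb left 3 SST and 6 VIP interactions at Dlx1/Dlx2 and 5 SST interactions at Dlx6/Dlx5, as the limit removes longer ones by construction. At Dlx1/Dlx2 100% of the SST and 50% of the VIP interactions were then shared, and the links among partners were 0 in SST and 0 in VIP. The SST over VIP ratio was then 0.414, and it was 0.911 when scaled by chromosome. Identical anchors left 0% shared in SST and 0% in VIP, since the Dlx1/Dlx2 anchor itself differs between the lists. With anchors within 10 kb 73.9% in SST and 80% in VIP were shared. Merging anchors within 5 kb gave 20 SST and 20 VIP interactions at Dlx1/Dlx2 and 11 SST interactions at Dlx6/Dlx5, with none across either locus. The linked share of partner pairs up to 200 kb apart, 15% in SST, was among the settings added after seeing the data, as were the merged values for pairs and crossings. For other changes the cause was not tested. No SST over VIP ratio was given at Dlx6/Dlx5, which is listed at 0 in VIP. No paired analysis was possible because there was 1 list for each cell type, so leaving out a replicate could not be tried either. The depth behind the lists is unknown.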
